A study of Mus musculus with 9 samples.

Results

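The BCL2 family decides whether a cell's mitochondria stay intact or release the proteins that start apoptosis. The list followed here has 10 genes of that family, taken by symbol: the pro-survival genes Bcl2, Bcl2l1 and Mcl1, the pore formers Bax and Bak1, and the BH3-only genes Bid, Bcl2l11, Pmaip1, Bmf and Bbc3. Of the 10, 9 had a probe set annotated to them alone, among 19938 genes measured in all, and each of the 9 had 1 probe set. Bax was unnamed in the probe table used here and was not analysed. The values came from cultures of the low-density marrow fraction, which holds blood progenitors, of Balb/c mice. The marrow of the animals was pooled, and all cultures, the controls included, first received stem cell factor (SCF) and FLT3 ligand (FLT3L), each a progenitor growth factor, at 100 ng/mL for 4 days. One group was taken then, with no IL-5, and the others after 4 or 10 days of interleukin 5 (IL-5), the cytokine of eosinophil formation, with 3 arrays in each group and 9 in total. Nothing in the labels ties the arrays of a group to different cultures or mice, so p-values here reflect only array-to-array spread, possibly technical. No group was kept as long without IL-5, and whether SCF and FLT3L were continued is not stated. Days in culture, IL-5 and any change of the growth factors therefore cannot be told apart.

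Pro-survival family members hold the pore formers in check at the mitochondrial outer membrane. BH3-only proteins sense a lack of growth factor, damage or other stress and bind the pro-survival proteins, and some of them also activate the pore formers directly. Once BAK or BAX form pores, cytochrome c leaves the mitochondria and assembles the apoptosome, which turns on caspases. Eosinophils are short-lived granulocytes whose survival depends on cytokines such as IL-5.

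Values are log2 signals, on which a difference of 1 is a 2-fold change, and means carry the SD of 3 arrays. A gene is said to rise or fall where the limma adjusted p was under 0.05 and the change was at least 2-fold. A gene that met the adjusted p alone is said to stand higher or lower. All members were well above the lower quartile of gene means, 4.66, that served as a mark of dim genes. Across arrays the correlation over all probe sets was at least 0.981 within groups and at most 0.973 between them. As a check of the labels, eosinophil peroxidase, Epx, went from a mean of 8.29 before IL-5 to 12.84 at day 4 and 13.15 at day 10, and the eotaxin receptor gene Ccr3 averaged 4.91, 7.21 and 12.49. All 9 eosinophil markers of the list rose at day 4 and at day 10. The 3 day 10 arrays differed in phagocyte markers: the mean of 12 monocyte and macrophage genes was 8.79, 8.58 and 9.60 in replicates 1 to 3, and that of 15 neutrophil genes 9.26, 9.58 and 10.02. The median change over all genes was -0.11 at day 4 and -0.07 at day 10, and 0.02 between the days. Subtraction of array medians moved the last pair to 0.06 and 0.13.

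Among the pro-survival genes the 3 members moved differently. Bcl2 fell early and stayed low, Mcl1 stood higher at day 4 and had risen by day 10, and Bcl2l1 rose only in the comparisons with day 10. Bcl2, the founding member of the family, protects resting lymphocytes and blood progenitors. Its log2 signal was 9.08, 9.15 and 9.15 before IL-5, 7.21, 7.09 and 6.91 at day 4, and 7.59, 7.43 and 7.54 at day 10. No array of one group overlapped with another group, and the cells before IL-5 were far above both later times. The fall was 4.17-fold at day 4 (log2 change -2.06 ± 0.103 SE, adjusted p = 2.66e-08), and only 27 of 19938 genes had a more negative change. At day 10 Bcl2 was 3.05-fold below the cells before IL-5 (-1.61, adjusted p = 4.69e-08). It stood 0.45 higher at day 10 than at day 4 (adjusted p = 0.00451), a difference under 2-fold.

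The cells before IL-5 also had more signal of other lineages, which was lower at both later times, as Bcl2 was. The mean log2 signal of 9 measured B cell markers ranged from 8.05 to 8.14 before IL-5, from 5.92 to 6.14 at day 4 and from 5.25 to 5.34 at day 10, and 8 of the 9 fell at each day. That of 9 stem and progenitor markers went from 8.95 to 8.97 down to 7.85 to 7.96 and then 7.38 to 7.42, with 6 falling at day 4 and 7 at day 10. All 7 measured erythroid markers fell at both days. From day 4 to day 10, when Bcl2 stood higher, the B cell and progenitor means were lower still. The erythroid mean ranged from 8.29 to 8.48 before IL-5, from 5.35 to 5.57 at day 4 and from 5.28 to 5.44 at day 10. Between the days 0 of the 7 erythroid markers fell. The part of these cells in the change of Bcl2 was not tested. In RNA from whole cultures, fewer cells of a type and less RNA per cell cannot be told apart.

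Bcl2l1 encodes BCL-XL, the pro-survival protein known from maturing red cells and from granulocytes under cytokine. Its log2 signal was 7.48, 7.69 and 7.67 before IL-5, 7.67, 7.68 and 7.47 at day 4, and 8.66, 8.55 and 8.76 at day 10. The first pair of groups overlapped and all day 10 arrays were higher. The difference at day 4 was -0.01 ± 0.108 SE (adjusted p = 0.963), and its sign turned in 5 alternative settings, quantile normalization (0.05) among them. At day 10 the gene rose 2.06-fold against the cells before IL-5 (1.04, adjusted p = 3.35e-06) and 2.07-fold against day 4 (1.05, adjusted p = 8.21e-06). These values lie close to the 2-fold limit: the first was 0.97 without replicate 1 before IL-5 and 0.99 without day 10 replicate 3, and the second was 0.98 without day 4 replicate 3 and just under the limit without day 10 replicate 3.

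MCL1 is a pro-survival protein with a very short half-life that growth factor signals replenish. Mcl1 signal was 10.99, 11.18 and 11.21 before IL-5, 11.97, 11.92 and 11.97 at day 4, and 12.48, 12.37 and 12.55 at day 10. The groups did not overlap, and each later time was above the one before it. Mcl1 stood 0.83 higher at day 4 (adjusted p = 3.59e-05), which is 1.78-fold, and had risen 2.53-fold by day 10 (1.34 ± 0.1 SE, adjusted p = 1.7e-07). From day 4 to day 10 the difference was 0.51 (adjusted p = 0.00149).

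**Figure D1:**
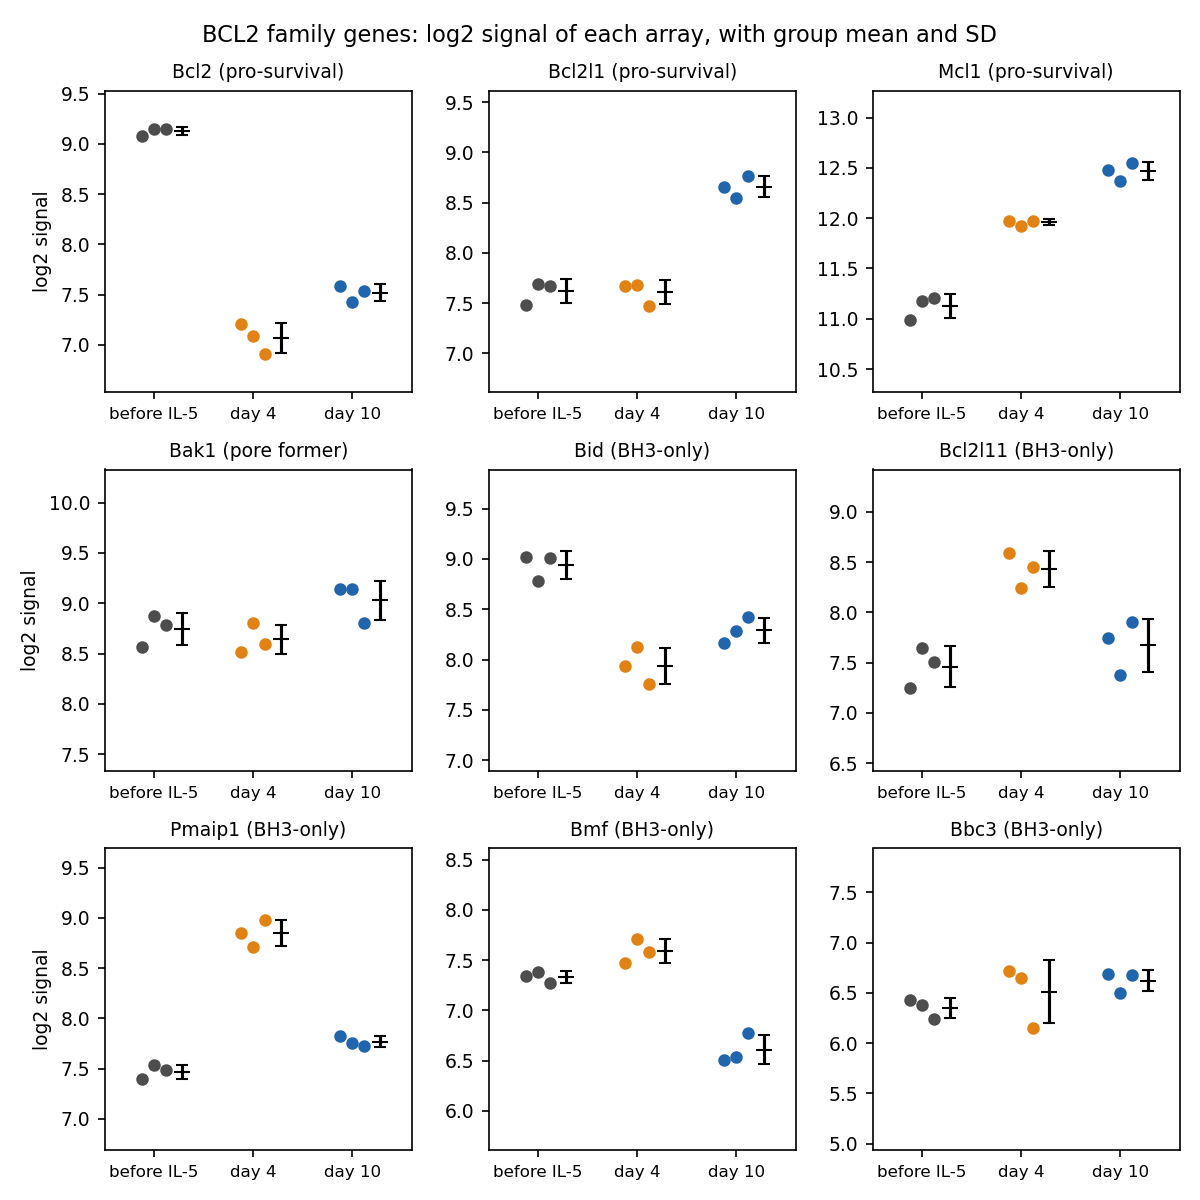
Each panel plots 1 BCL2 family gene: points are the log2 signals of the 3 arrays in each group (start of IL-5, day 4, day 10), and the bar beside them is the group mean ± SD. Every vertical axis spans the same number of log2 units but starts at its own level. Bcl2 drops from 9.13 to 7.07, Mcl1 climbs to 12.47, and Pmaip1, Bcl2l11 and, by a small margin, Bmf are highest at day 4.

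The pore former Bak1 encodes BAK, which sits in the outer mitochondrial membrane and oligomerises when activated. Its signal was 8.56, 8.87 and 8.78 before IL-5, 8.52, 8.80 and 8.59 at day 4, and 9.14, 9.14 and 8.80 at day 10. Day 4 overlapped with the start, and day 10 replicate 3 lay among the arrays of the start and level, to 2 decimals, with day 4 replicate 2. Bak1 changed by -0.10 at day 4 (adjusted p = 0.614) and by 0.29 at day 10 (adjusted p = 0.0891), neither of which met the adjusted p. The day 10 difference did meet it with the trended, robust prior (adjusted p = 0.0355), after quantile normalization (0.39, adjusted p = 0.024), after subtraction of array medians (0.42) and without day 10 replicate 3 (0.40). Bak1 stood 0.39 higher at day 10 than at day 4 (adjusted p = 0.0343, with a range of 0.00742 to 0.126 over the alternatives). Day 10 replicate 3, the lowest of its group for Bak1, was also the array with the highest macrophage and neutrophil marker means, and the part of those cells was not tested.

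Of the BH3-only genes, Pmaip1, Bcl2l11 and Bmf had their highest means at day 4. For Bmf the difference from the start did not meet the adjusted p. NOXA, the product of Pmaip1, binds MCL1 in particular and is induced by p53 and by stress signals. Pmaip1 signal was 7.40, 7.54 and 7.49 before IL-5, 8.85, 8.71 and 8.98 at day 4, and 7.83, 7.76 and 7.73 at day 10. All day 4 arrays were above all others, and the day 10 arrays lay just above those before IL-5. The rise at day 4 was 2.59-fold (1.37 ± 0.1 SE, adjusted p = 5.62e-07), and the fall from day 4 to day 10 was 2.11-fold (-1.07, adjusted p = 3.5e-06). That fall missed the 2-fold limit after quantile normalization (-0.93) and after subtraction of array medians (-0.97). At day 10 Pmaip1 still stood 0.30 above the cells before IL-5 (adjusted p = 0.0283, with a range of 0.000523 to 0.0956 over the alternatives), and by 0.56 after quantile normalization.

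BIM, encoded by Bcl2l11, binds all pro-survival members and is the BH3-only protein best known for killing blood cells deprived of cytokine. Its gene gave 7.25, 7.64 and 7.51 before IL-5, 8.59, 8.24 and 8.45 at day 4, and 7.74, 7.38 and 7.90 at day 10. Day 4 stood apart, while the other groups overlapped. Bcl2l11 stood 0.96 ± 0.15 SE higher at day 4 (1.95-fold, adjusted p = 0.000272), just short of the 2-fold limit, and passed it after quantile normalization (1.08), without replicate 2 before IL-5 (1.05) and without day 4 replicate 2 (1.06). It stood 0.76 lower at day 10 than at day 4 (-0.76, adjusted p = 0.00162), and at day 10 it differed from the cells before IL-5 by 0.21 (adjusted p = 0.302), or by 0.47 after quantile normalization (adjusted p = 0.0169).

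The list means of dendritic, macrophage and neutrophil markers were highest at day 4 too, but their genes were not uniform. The mean of 10 dendritic cell markers ranged from 6.97 to 7.09 before IL-5, from 8.38 to 8.5 at day 4 and from 5.95 to 6.00 at day 10, with 5 rising at day 4 and 8 falling from day 4 to day 10. For 12 monocyte and macrophage markers the ranges were 7.49 to 7.59, 9.77 to 9.91 and 8.58 to 9.60, with 9 rising at day 4. The means of 15 neutrophil markers lay at 9.92 to 10.15, at 10.97 to 11.06 and at 9.26 to 10.02, with 8 rising at day 4. By group means, 8 of 10 dendritic, 10 of 12 macrophage and 6 of 15 neutrophil markers were highest at day 4. Of the other neutrophil genes, 4 were highest before IL-5 (Mpo, Elane, Prtn3 and Ctsg) and 5 at day 10. Their part in the day 4 values of Pmaip1 and Bcl2l11 was not tested.

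BID links death receptors to mitochondria, since caspase 8 cleaves it into its active form. Bid signal was 9.02, 8.78 and 9.01 before IL-5, 7.94, 8.12 and 7.76 at day 4, and 8.16, 8.28 and 8.42 at day 10. The cells before IL-5 were above all later arrays, and day 10 lay above day 4 with no overlap. Bid fell at day 4 with a log2 change of -1.0 ± 0.121 SE (adjusted p = 3.59e-05), at the 2-fold limit itself. The value was -0.96 without replicate 1 or 3 before IL-5, -0.91 without day 4 replicate 3, -0.99 after quantile normalization and -0.98 after subtraction of array medians, all under 2-fold. At day 10 Bid stood lower than before IL-5 (-0.65, adjusted p = 0.000546), and it stood 0.35 above day 4 (adjusted p = 0.0429, with a range of 0.00524 to 0.18 over the alternatives).

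BMF is a BH3-only protein tied to the cytoskeleton through a dynein light chain. Bmf signal was 7.34, 7.38 and 7.27 before IL-5, 7.47, 7.71 and 7.58 at day 4, and 6.51, 6.54 and 6.78 at day 10. Every day 4 array was above every array before IL-5, and every day 10 array was below every earlier array. The difference at day 4, 0.26, did not meet the adjusted p (0.0911 in limma), but did after quantile normalization (0.32, adjusted p = 0.02) and after subtraction of array medians (0.28, adjusted p = 0.0391). Bmf stood lower at day 10 than before IL-5 (-0.72, adjusted p = 9.04e-05) and than at day 4 (-0.98, 1.97-fold, adjusted p = 1.48e-05). After quantile normalization the first of these was -0.43. The second passed the 2-fold limit without day 4 replicate 1 (-1.04) or day 10 replicate 3 (-1.07).

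PUMA, from Bbc3, binds all pro-survival members and is a main effector of p53. Bbc3 gave 6.43, 6.38 and 6.24 before IL-5, 6.72, 6.65 and 6.15 at day 4, and 6.69, 6.50 and 6.68 at day 10. Day 4 replicate 3 was the lowest of all 9 arrays, and the day 4 arrays spanned those of the other groups. Its changes of 0.16, 0.27 and 0.12 had adjusted p of 0.45, 0.153 and 0.592. The first was 0.05, 0.08 and 0.34 without day 4 replicates 1, 2 and 3 in turn, and without replicate 3 the last turned to -0.07. After quantile normalization the day 10 differences were 0.53 (adjusted p = 0.00444) and 0.36 (adjusted p = 0.0494), and after subtraction of array medians the one against the start was 0.40 (adjusted p = 0.0242).

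**Figure D2:**
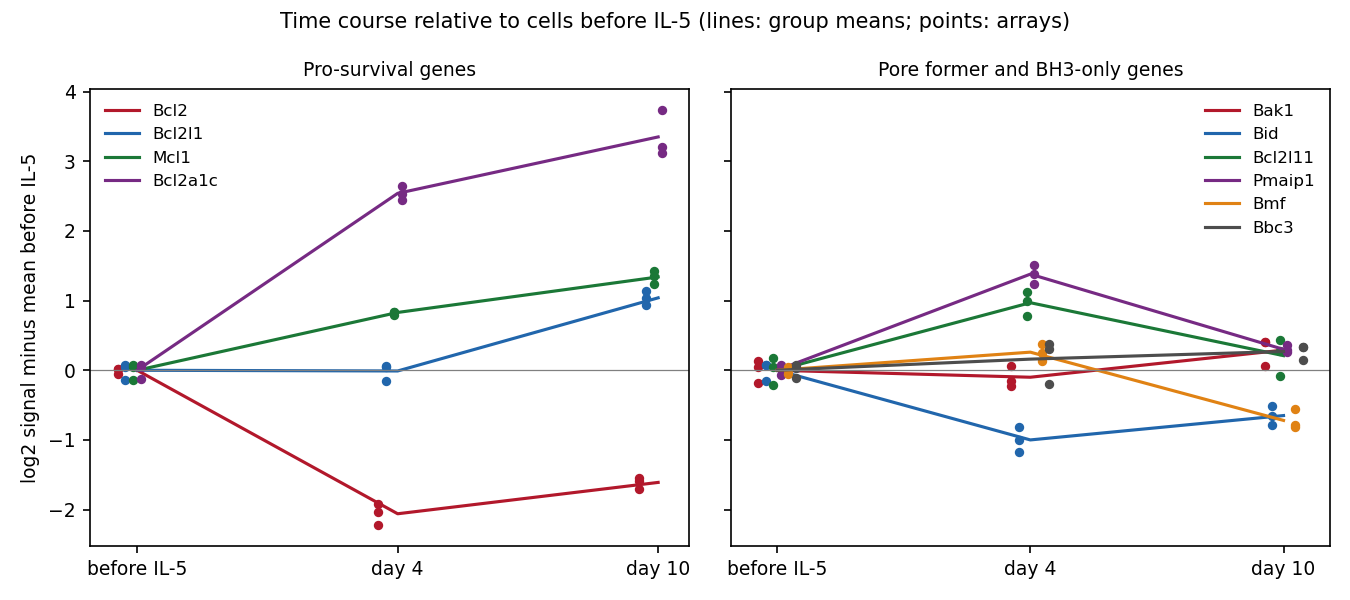
Log2 signal of each gene minus its mean before IL-5, at the 3 times; lines join group means and points are arrays. Left, pro-survival genes with Bcl2a1c added: Bcl2 lies 2.06 below the start at day 4, and Bcl2l1 stays near 0 until day 10. Right, Bak1 and the BH3-only genes: Pmaip1, Bcl2l11 and, by a small margin, Bmf peak at day 4, Bid is lowest there, and Bmf is lowest at day 10.

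Counted over the family, 3 of 9 members passed at day 4, with 1 rise (Pmaip1) and 2 falls (Bcl2 and Bid). Over all genes 5.53% passed, 3.42% rising and 2.11% falling. On adjusted p alone the count was 5 of 9 against 31.5% of all genes, and the arrays did not overlap for 6 of 9 against 43.6%. The median change of the 9 was 0.16, beside -0.11 over all genes.

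At day 10, compared with the start, 3 of 9 passed, with rises of Mcl1 and Bcl2l1 and the fall of Bcl2. The background was 14.2% of all genes, 4.83% rising and 9.40% falling. Falls made up 66.0% of the calls over all genes, 54.5% after quantile normalization and 55.2% after subtraction of array medians. On adjusted p alone 6 of 9 members were called against 42.3% of all genes, and 7 of 9 had arrays that did not overlap against 49.7%. The median change was 0.27 for the members and -0.07 for all genes.

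From day 4 to day 10 Bcl2l1 rose and Pmaip1 fell, 2 of 9, against 6.42% of all genes, 2.44% rising and 3.98% falling. Only 1 of these calls was left after quantile normalization, after subtraction of array medians or without day 4 replicate 3. Without day 10 replicate 3 Pmaip1 was left of them, and Bmf was called in addition. On adjusted p alone 8 of 9 members were called, against 31.9% of all genes, and non-overlap also held for 8 of 9, against 44.2%. Bbc3 was the member that did not meet either measure. The median change was 0.35, beside 0.02 over all genes. The 3 comparisons share arrays with each other, so their counts are not independent.

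**Figure D3:**
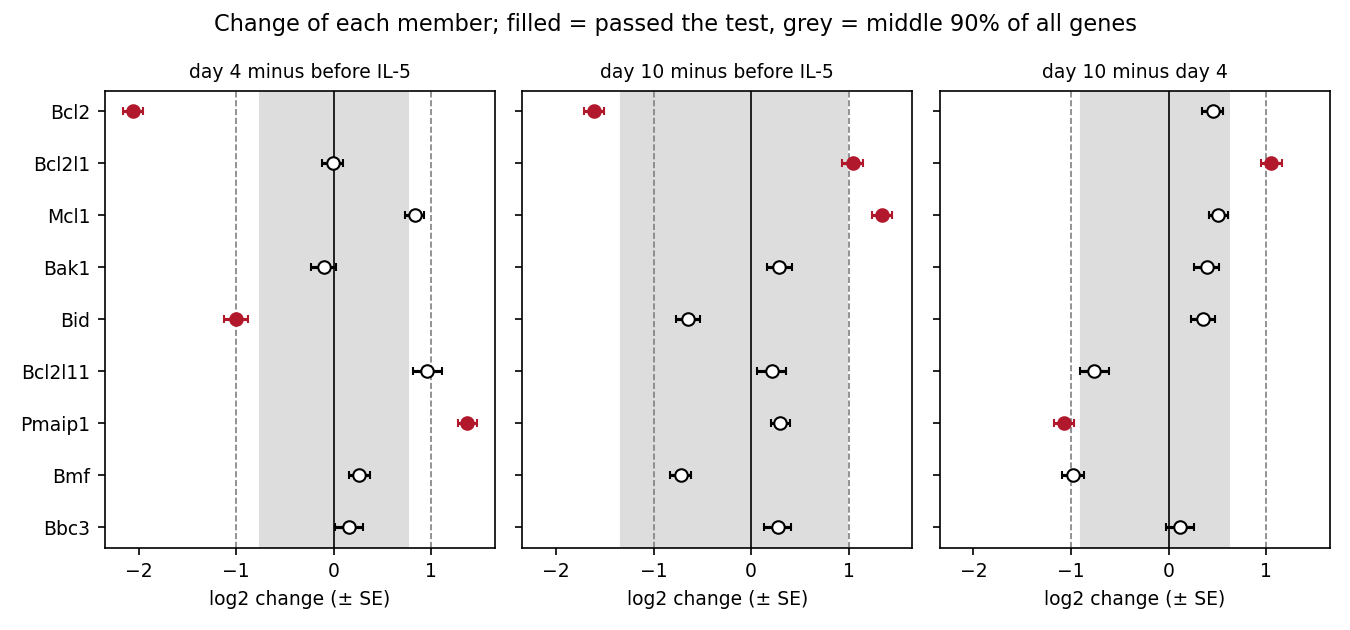
Log2 change ± SE of each member in the 3 comparisons (horizontal axis; dashed lines mark 2-fold). Filled points passed the test, and the grey band holds the middle 90% of all genes, from -0.76 to 0.76 at day 4, from -1.33 to 0.98 at day 10 and from -0.90 to 0.62 between the days. Bcl2, below the band, and Mcl1, above it, lie outside in both comparisons with the cells before IL-5.

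Promoter sequence was used for 8 of the 9 measured members and for Bax, but not for Pmaip1. The windows were the 250 bases before each annotated RefSeq start (GRCm38.p6, the C57BL/6J reference and not Balb/c), on the gene's strand. They are shown for the pro-survival genes, whose time courses differed, and for the pair of BH3-only genes whose windows hold a FOXO motif, since FOXO3 is a known activator of both when growth factor signals drop. Bcl2l1, Bcl2l11 and Bbc3 had further windows that are not shown, and those of Bcl2l1 held no match. Capitals mark motif matches.

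Bcl2, chr1:106714291-106714540, minus strand: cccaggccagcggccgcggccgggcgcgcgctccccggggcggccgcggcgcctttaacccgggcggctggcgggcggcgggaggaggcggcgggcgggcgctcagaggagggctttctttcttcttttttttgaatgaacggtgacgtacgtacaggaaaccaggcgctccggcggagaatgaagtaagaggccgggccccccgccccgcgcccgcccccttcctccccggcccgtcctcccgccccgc

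Bcl2l1, chr2:152828490-152828739, minus strand: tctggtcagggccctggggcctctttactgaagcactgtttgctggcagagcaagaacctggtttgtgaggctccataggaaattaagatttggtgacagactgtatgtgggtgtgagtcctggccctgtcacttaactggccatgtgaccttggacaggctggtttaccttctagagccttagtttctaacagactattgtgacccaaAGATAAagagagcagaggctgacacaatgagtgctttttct

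Mcl1, chr3:95658471-95658720, plus strand: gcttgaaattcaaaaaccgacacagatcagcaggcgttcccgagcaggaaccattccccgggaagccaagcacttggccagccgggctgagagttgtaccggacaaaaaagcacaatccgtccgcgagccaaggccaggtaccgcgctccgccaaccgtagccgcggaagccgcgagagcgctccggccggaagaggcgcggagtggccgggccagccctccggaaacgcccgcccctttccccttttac

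Bcl2l11, chr2:128125788-128126037, plus strand: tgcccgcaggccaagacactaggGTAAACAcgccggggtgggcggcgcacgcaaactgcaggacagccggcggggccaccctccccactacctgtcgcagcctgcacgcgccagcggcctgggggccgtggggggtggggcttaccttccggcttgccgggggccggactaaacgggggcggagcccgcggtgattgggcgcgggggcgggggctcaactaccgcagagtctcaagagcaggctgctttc

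Bbc3, chr7:16310011-16310260, plus strand: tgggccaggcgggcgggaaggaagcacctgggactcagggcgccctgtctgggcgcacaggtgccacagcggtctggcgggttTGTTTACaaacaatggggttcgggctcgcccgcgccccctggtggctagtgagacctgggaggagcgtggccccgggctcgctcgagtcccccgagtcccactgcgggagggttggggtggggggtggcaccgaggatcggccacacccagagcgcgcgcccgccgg

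The motifs searched, on both strands, were the STAT motif TTCNNNGAA, the FOXO motif GTAAACA, the GATA motif AGATAA, the AP-1 motif TGANTCA and the E-box CACGTG. Pmaip1 was left out of the family's windows, so the counts for the family do not cover it. No window of the family held more than 1 of these motifs. The FOXO motif was found at position -227 from a start of Bcl2l11 and, on the opposite strand, at position -167 from a start of Bbc3, in 2 of 16 windows of the family and in 3.17% of 32851 RefSeq windows. The GATA motif lay at position -41 of 1 window of Bcl2l1, and 9.99% of all windows held it. No window of the family held the STAT motif (7.02% of all windows) or the AP-1 motif (6.75%), and the E-box (6.02%) was in 2, that of Bax and another window of Bbc3, which overlaps the one shown. In these windows GC content was above the median of all windows, 52.4%, in 14 of 16, with 74.8% for Bcl2, 64.4% for Mcl1 and 48.4% for the Bcl2l1 window shown. A match is a run of letters and not a measured binding site.

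Foxo3, the transcription factor gene, was singled out after its values were seen. It averaged 8.58 ± 0.15 (SD) at the start, 8.45 ± 0.038 at day 4 and 9.44 ± 0.074 at day 10. Foxo3 stood higher at day 10 than before IL-5 (0.86, adjusted p = 1.27e-05) and than at day 4 (0.99, adjusted p = 8.46e-06), both under 2-fold, and Bcl2l11 was highest at day 4. Bbc3 had its highest mean at day 10 (6.62), with differences that did not meet the adjusted p. Foxo1, the other FOXO gene of the lists, averaged 7.47, 7.28 and 7.25. Its changes of -0.2, -0.22 and -0.03 did not meet the adjusted p (0.212, 0.134 and 0.893). The part of either factor in the values of Bcl2l11 and Bbc3 was not tested.

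The genes most like a member were sought among 3380 genes whose group means spanned at least 1 on the log2 scale, by Pearson correlation over the 9 arrays. Since the arrays form 3 groups, such a correlation mostly describes the order of the group means. For Bcl2 the closest were the transporter gene Abcb6 (r = 0.991), the homeobox gene Meis1 (0.990) and the amino acid transporter gene Slc38a5 (0.989). Bcl2l1 was followed most closely by F2rl2 (0.994), Sgms1 (0.991) and Man1a (0.990), and Mcl1 by Fam234a (0.995), Nfam1 (0.994) and Slc6a6 (0.994). Bcl2l11 had lower values, with Nr1h3 at 0.976, Dennd2a at 0.970 and Cadm1 at 0.968. Meis1, a transcription factor of stem and progenitor cells, averaged 8.28, 7.01 and 7.18 at the 3 times.

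Of the other genes of the BCL2 family, 13 of 16 listed were measured, and 1 rose at day 4, 2 at day 10 and 1 from day 4 to day 10, with 0 falls. These are 7.69%, 15.4% and 7.69% of the list, near the 5.53%, 14.2% and 6.42% of all genes. The median changes were -0.01, 0.05 and 0.15. On adjusted p alone, 1 stood higher and 2 lower at day 4, 2 higher and 3 lower at day 10, and 2 and 2 between the days. Those lower at day 10 were Bcl2l13 (-0.79, adjusted p = 1.79e-05), Bcl2l2 (-0.47, adjusted p = 0.00631) and Bcl2l12 (-0.32, adjusted p = 0.03). Bcl2l2 also stood lower at day 10 than at day 4 (-0.74, adjusted p = 0.000398). Bcl2a1c, a copy of the pro-survival gene for A1, was at 4.58, 4.76 and 4.78 before IL-5, at 7.15, 7.36 and 7.24 at day 4, and at 7.83, 8.45 and 7.91 at day 10. It rose by 2.54 at day 4 (adjusted p = 9e-08) and by 3.35 at day 10 (adjusted p = 1.82e-09). It started at the level of dim genes, so the size of its change is uncertain. The copies of Bcl2a1 are near-identical, so which of them gave the signal is uncertain. Bnip3, a mitochondrial protein of hypoxia and mitophagy, rose by 1.31 at day 10 (adjusted p = 1.53e-05) and by 1.12 from day 4 to day 10. Its other probe set gave 0.68 and 0.77, the mean of both gave 0.99 and 0.95, and without day 10 replicate 3 the last comparison gave 0.93.

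Downstream of the family, 22 of 25 listed genes for the apoptosome, caspases, mitochondrial channels and inhibitor of apoptosis proteins were measured. At day 4, 3 rose and 0 fell (13.6% called, against 5.53% of all genes), and on adjusted p alone 5 stood higher and 8 lower. The genes that rose were Naip5 (1.19), Birc3 (1.16) and Naip2 (1.08, but 0.88 without replicate 3 before IL-5). Other inhibitor of apoptosis genes did not pass the test and were not uniform. Birc2 stood higher, just short of the 2-fold limit (0.95, 1.94-fold, adjusted p = 8.53e-06). Birc5, which encodes survivin, stood lower (-0.68, adjusted p = 0.000218). Birc6 was at 0.28 (adjusted p = 0.0792) and Xiap at 0.06 (adjusted p = 0.723). Birc3 makes cIAP2, a ubiquitin ligase of TNF receptor signalling, and the NAIP proteins are also inflammasome sensors. The Naip genes are close copies of each other, so their identity is uncertain. At day 10 the same 3 rose, Naip5 by 1.39, Naip2 by 1.38 and Birc3 by 1.29, and 6 fell, 40.9% called against 14.2% of all genes. The 6 were Diablo (-1.48, adjusted p = 4.94e-08), cytochrome c, Cycs (-1.43, adjusted p = 1.34e-06), and the apoptosis-inducing factor Aifm1 (-1.25, adjusted p = 4.57e-07), Birc5 (-1.23), the protease gene Htra2 (-1.17) and the channel gene Vdac1 (-1.09). Of their products, those of Diablo, Cycs, Aifm1 and Htra2 are known to leave the mitochondria in apoptosis, whereas Endog, whose product does so too, was at -0.30 (adjusted p = 0.0749). The other channel genes of the list did not pass the test at day 10. Vdac2 was at -0.1 (adjusted p = 0.519), and Vdac3 stood lower (-0.67, adjusted p = 6.61e-05). Birc2, Birc5, Birc6, Htra2, Vdac1, Vdac2, Vdac3, Xiap, Endog, Pim3, Foxo1, Bcl2l2, Bcl2l12 and Bcl2l13 were named after their values were seen. The other probe sets of Cycs gave -1.53 and -1.63. Signal of Diablo was 7.30, 7.37 and 7.45 before IL-5, 6.76, 6.81 and 6.71 at day 4, and 5.80, 5.98 and 5.91 at day 10, with no overlap between the times. From day 4 to day 10 limma called 0 of the 22, of which 10 met the adjusted p alone. The median changes were -0.18, -0.29 and -0.13.

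Of 15 death receptor genes and adaptors 14 were measured, and 14.3%, 21.4% and 21.4% of them were called in the 3 comparisons, against 5.53%, 14.2% and 6.42% of all genes. At day 4 Traf1, an adaptor of TNF receptors, rose by 2.65 (adjusted p = 1.7e-08) and the TNF receptor gene Tnfrsf1b by 1.27 (adjusted p = 8.47e-06), and 0 fell. Traf1 was at 5.01, 5.00 and 4.97 before IL-5, at 7.56, 7.53 and 7.84 at day 4, and at 4.78, 5.04 and 5.22 at day 10, so that the first and last groups overlapped and day 4 stood apart. At day 10 the death receptor gene Fas rose by 1.17 (adjusted p = 1.68e-05), while Ripk3, a kinase of necroptosis, fell (-1.43, adjusted p = 1.23e-06), and so did Tnfrsf1a (-1.0, adjusted p = 4.97e-05). Tnfrsf1a lay at the 2-fold limit, with -0.86 after quantile normalization, -0.87 after subtraction of array medians, and -0.99, -0.89 and -0.93 without replicate 1 before IL-5, day 10 replicate 1 and day 10 replicate 2. From day 4 to day 10 Traf1 (-2.63), Tnfrsf1a (-1.40) and Tnfsf10 (-1.02), the gene of the ligand TRAIL, fell. Tnfsf10 was at -0.93 after quantile normalization, at -0.91 after subtraction of array medians, at -0.88 without day 4 replicate 2 and at -0.76 without day 10 replicate 2. The medians of this list were 0.07, -0.04 and -0.17.

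Among 23 of 25 measured genes whose products act on the family, Pim1 and Pim2 were among those that rose. They encode growth factor-induced kinases that phosphorylate and inactivate the BH3-only protein BAD. Pim1 signal was 9.42, 9.24 and 9.39 before IL-5, 10.52, 10.51 and 10.49 at day 4, and 11.27, 11.24 and 11.13 at day 10, a rise of 1.16 at day 4 (adjusted p = 1.46e-06) and of 1.87 at day 10 (adjusted p = 5.96e-09). Pim2 rose by 1.43 at day 10 (adjusted p = 2.03e-07) and by 1.36 from day 4 to day 10, with 0.07 at day 4. Pim3, the other kinase gene of this family, met no threshold, with -0.12, -0.31 and -0.19. The orphan receptor gene Nr4a1, whose protein can bind BCL2, rose by 1.40 at day 4 and fell by 1.56 to day 10. The zinc finger factor gene Zbtb16 rose by 1.53 at day 10 and by 1.52 from day 4. Dynll2, the dynein light chain that holds BMF, fell at day 10 (-1.09), but was at -0.84 after quantile normalization and at -0.96 after subtraction of array medians. In this list 2 of 23 rose at day 4, 3 rose and 1 fell at day 10, and 2 rose and 1 fell between the days, which is 8.70%, 17.4% and 13% of the list against 5.53%, 14.2% and 6.42% of all genes. Its medians were 0.02, 0.25 and 0.16. The calls from day 4 to day 10 numbered 5 after quantile normalization and 6 after subtraction of array medians.

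**Figure D4:**
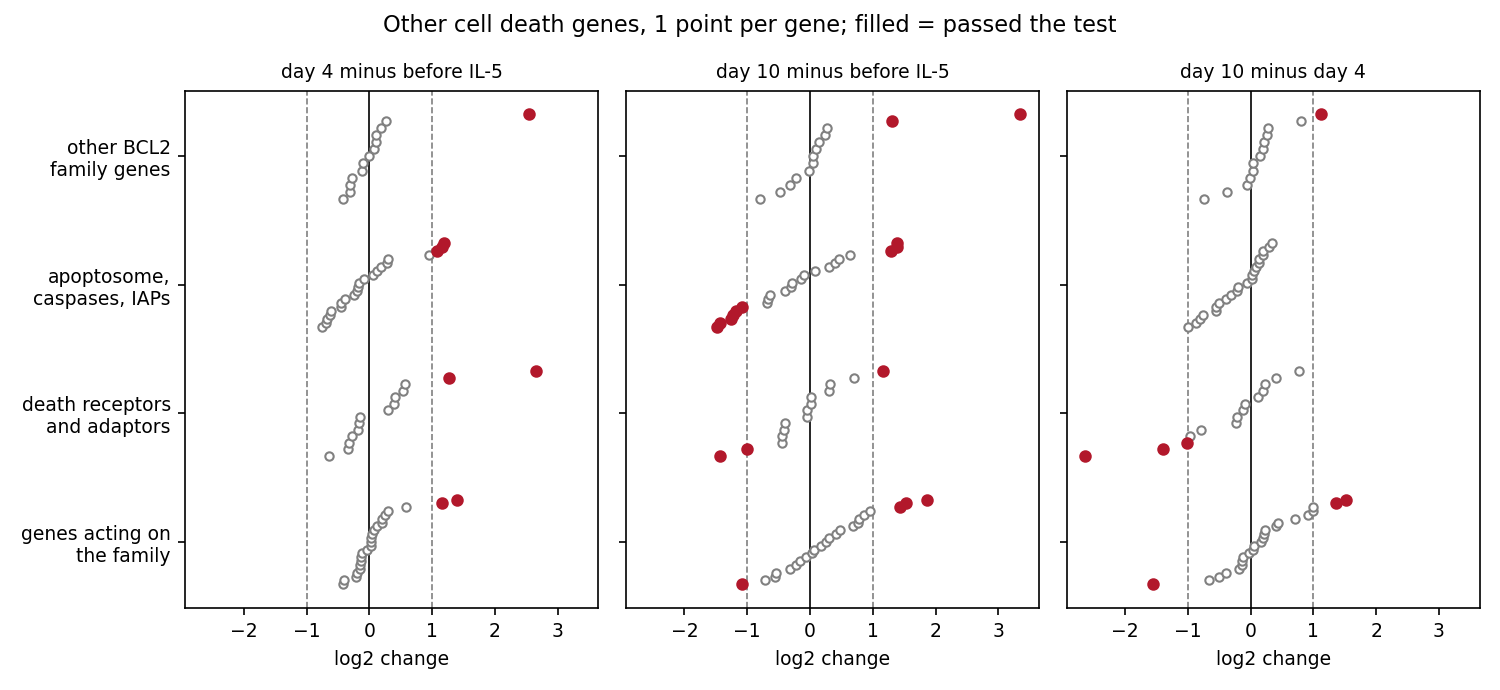
Log2 change (horizontal axis) of the measured genes of 4 other cell death lists in the 3 comparisons, 1 point per gene ordered by its change within a list; dashed lines mark 2-fold. Filled points passed the test: the point furthest right at day 10 is Bcl2a1c (3.35) and the one furthest left between the days is Traf1 (-2.63).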

How the data were processed

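The authors deposited 1 table of log2 signals for 35557 probe sets on 9 Affymetrix mouse gene arrays. The submitters' processing notes name Expression Console 1.1.2637.26569 as the software, while the sample descriptions, per the labels, name the default gene-level RMA summary. The sources used here give neither its annotation release nor its genome build. RMA compresses changes of dim genes and gives 1 value per probe set, here at the gene level, so splice forms are not separated. The number of arrays limits the precision.

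Probe sets naming 1 gene (21789) were used, and those naming several genes (1621) or none (12147) were not tested as genes. For 999 genes with several probe sets the brightest on average was kept, leaving 19938 genes. Symbols were checked through Entrez identifiers against the GRCm38.p6 gene table (0 updated, 91 as given). Limma 3.58.1 in R 4.3.3 was fitted to 3 group means (6 residual and 6.47 prior degrees of freedom), with two-sided p-values adjusted by Benjamini-Hochberg over all genes of a comparison. Calls needed an adjusted p under 0.05 and at least 2-fold. The fit and the correlation ranking were tested on simulated data, and the choice of probe sets was checked on the real values. All members are named, with up to 3 rises and 3 falls per other list and comparison, and the 3 genes most correlated with each of Bcl2, Bcl2l1, Mcl1 and Bcl2l11. Members and lists were chosen with earlier results of these data known. Array medians ran from 5.67 to 5.75. Alternatives covered normalization, dim genes, probe sets, prior, samples in the fit, a replicate block and each array left out.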

Additional observations from a re-analysis of the deposited data

Results flagged for a closer look

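Signal appeared in 3 probe sets that name all 4 copies of Bcl2a1 together and that no comparison above used. Their group means were 5.35, 5.44 and 5.43 before IL-5, 8.35, 8.16 and 8.31 at day 4, and 9.51, 9.45 and 9.5 at day 10. In a limma fit over all 35557 probe sets the log2 changes at day 4 were 3.00, 2.72 and 2.88 (adjusted p = 2.93e-06, 3.76e-05 and 5.82e-06), and at day 10 they were 4.16, 4.01 and 4.06 (adjusted p = 1.01e-07, 1.1e-06 and 2.04e-07). The groups did not overlap in any of the 3 probe sets. They share the sequence of the same genes, so they are not separate evidence, and which copy gave the signal cannot be told apart.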

How the results depend on the processing

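Of 27 changes of members, each under 17 alternatives, 19 kept their direction and their side of the test with its 2-fold limit throughout. Part of the alternatives could not move a member's log2 change and could alter only its adjusted p. These were the dim gene filter, the mean of probe sets, the prior, the 2 groups alone, the block and all probe sets. Leaving out an array of the group not compared was another. In these, direction and 2-fold side were fixed in advance. On adjusted p alone, 8 of 27 crossed 0.05 in at least 1 alternative. The changes that did not keep their direction or their side of the test are given above with their values. The sign of the Bcl2l1 difference at day 4 turned with quantile normalization (0.05) and subtracted medians (0.02), and ranged from -0.08 to 0.06 with 1 array left out; that of Bbc3 from day 4 to day 10 ranged from -0.07 to 0.22 in the same way. Members past the test between the days numbered 1 after quantile normalization or subtraction of medians, and 1 to 3 with 1 array left out. Leaving out 1 array gave 2 to 4 members at day 4 and 2 to 3 at day 10. With adjusted p alone the members numbered 5, 6 and 8, the other family genes 3, 5 and 4, the apoptosome and caspase list 13, 18 and 10, the death receptor list 8, 7 and 7, the genes acting on the family 6, 15 and 12, and all genes 6279, 8440 and 6364 in the 3 comparisons. With the mean of probe sets the other family genes numbered 1 at day 10 and 0 between the days, and 0 to 1 between the days with 1 array left out; the apoptosome and caspase list had 0 to 1 there. Genes acting on the family numbered 5 and 6 between the days after quantile normalization and subtraction of medians. The causes were not tested.

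The replicate numbers in the titles showed no pairing of the arrays. Deviations from group means correlated from -0.119 to 0.077 between arrays of the same number, and 0 of 9 arrays were most like their own number. With 3 arrays a group, this cannot show that the arrays are unpaired. The numbers in the sample descriptions differ from the titles for 4 arrays and were not used. With the number as a replicate block, 3, 3 and 2 members passed and 1103, 2842 and 1282 of all genes, and no member's call changed. The block left each log2 change as it was, so only the adjusted p could have altered a call. On adjusted p alone, limma with the block gave 0.0758 for Bid between the days and 0.0519 for Pmaip1 at day 10. A fit over all probe sets was added after seeing the data.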
